A study of Homo sapiens with 12 samples.

Results

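The respiratory chain was examined in Cas9-expressing HT29, an established human colon cancer line. A list of 59 genes was followed, of which 13 are encoded in mitochondrial DNA and 46 in nuclear chromosomes. All 59 were found by Ensembl ID among the 20015 genes of the deposited table, and all passed the filter on low counts, which left 11323 genes. Cells carried a QRICH1-targeting guide (QRICH1 KO) or a non-targeting guide (WT), both delivered by lentivirus, and received tunicamycin (Tm, 0.3 µg/ml) or its solvent DMSO for 14 h. The groups were QRICH1 KO Tm, QRICH1 KO DMSO, WT Tm and WT DMSO, with 3 libraries each, which the design text calls biological replicates. Tunicamycin blocks N-linked glycosylation and so loads the endoplasmic reticulum (ER) with unfolded proteins, and the series asks how QRICH1 shapes the transcriptional answer to that stress. Whether the QRICH1 KO cells were a clone or a pool is not given in the sources used here.

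The respiratory chain sits in the inner mitochondrial membrane. Complex I takes electrons from NADH and complex II takes them from succinate, complex III passes them from ubiquinol to cytochrome c, and complex IV hands them to oxygen. Complexes I, III and IV pump protons, and complex V, the ATP synthase, makes ATP as protons flow back. Complexes I, III, IV and V are built from subunits of both genomes, whereas complex II is wholly nuclear. Mitochondrial DNA is read as long precursor RNAs that are cut into separate messengers, while each nuclear subunit has its own promoter.

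Libraries held 6856736 to 17861844 counts, and a count of 0 would allow up to 0.168 to 0.438 CPM (counts per 1e+06 library counts, from 3 counts and covering counting error only). Library 3 of QRICH1 KO DMSO and library 3 of QRICH1 KO Tm had counts for 15340 and 14813 genes, more than the 13124 to 14094 of the other 10 libraries, and counts are given without them where a call rests on them. QRICH1 itself had 26.8, 22.4 and 19.2 CPM in QRICH1 KO Tm and 23.3, 24.1 and 24.8 CPM in QRICH1 KO DMSO, against 30.9, 31.1 and 25.7 CPM in WT Tm and 22.7, 31.1 and 35 CPM in WT DMSO. The groups overlapped within each treatment, and the gene passed the test neither under Tm (log2 fold change -0.36 ± 0.16 SE, adjusted p = 0.352) nor under DMSO (-0.31 ± 0.16, adjusted p = 0.577). Counts over a whole gene do not check a small edit at a guide's cut site. Of 12 epithelial markers 9 passed the filter, with sums of 63200 to 79900 CPM in QRICH1 KO Tm, 72800 to 95200 in QRICH1 KO DMSO, 58600 to 75600 in WT Tm and 64500 to 99300 in WT DMSO, whereas the intestinal markers CDX1, CDX2, CDH17 and GPA33 averaged 0.00471, 0.684, 0.573 and 0.0831 CPM. Of 24 markers of other cell types 5 passed the filter and 2 (CD3E and SNAP25) were at 0 throughout, and their sum of 1850 to 2690 CPM was mostly LYZ, at a mean of 2190 CPM.

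The 13 mitochondrially encoded genes lie on 1 small circular chromosome, and in places their coding sequences share bases. MT-ATP8 (chrM:8366-8572, hg38, plus strand) overlaps MT-ATP6 (chrM:8527-9207) by 46 bases. MT-ND4L (chrM:10470-10766, plus strand) overlaps MT-ND4 (chrM:10760-12137) by 7 bases. Each pair is known to be translated from a single shared messenger. GENCODE 29 also annotates pseudogene copies of all 13 genes that could share their reads. They number 2 for MT-ATP8 and between 22 (MT-ND3) and 45 (MT-CO1) for each of the others. How far they alter the counts, levels and ratios below was not tested. The upstream gene of each pair is printed here because reads over the shared bases, in capitals, cannot be assigned to 1 gene, and because MT-ATP8 and MT-ND4L were among the genes called below (GENCODE 29, hg38).
MT-ATP8: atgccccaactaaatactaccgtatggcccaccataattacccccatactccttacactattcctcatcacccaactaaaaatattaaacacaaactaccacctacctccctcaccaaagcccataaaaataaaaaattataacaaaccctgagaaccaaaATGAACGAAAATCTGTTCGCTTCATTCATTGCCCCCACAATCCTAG
MT-ND4L: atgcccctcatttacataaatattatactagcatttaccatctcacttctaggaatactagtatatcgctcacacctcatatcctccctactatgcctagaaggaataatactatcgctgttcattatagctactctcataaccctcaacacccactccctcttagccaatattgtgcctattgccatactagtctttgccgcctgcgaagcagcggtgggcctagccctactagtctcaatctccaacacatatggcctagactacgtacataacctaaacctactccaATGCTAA

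Together the 13 mitochondrially encoded genes took a few percent of all counts, and 46 nuclear-encoded subunits took less than 1%. The mitochondrial share was 2.77%, 3.36% and 3.74% in QRICH1 KO Tm, against 2.45%, 2.06% and 3.10% in QRICH1 KO DMSO. It was 3.44%, 3.17% and 2.59% in WT Tm, against 2.77%, 2.79% and 3.69% in WT DMSO. The Tm and DMSO libraries overlapped in both genotypes, although library 1 of QRICH1 KO Tm was the only one of its group below any QRICH1 KO DMSO library. Group means were 3.29% ± 0.489 in QRICH1 KO Tm and 2.54% ± 0.525 in QRICH1 KO DMSO, against 3.07% ± 0.434 in WT Tm and 3.08% ± 0.525 in WT DMSO (SD, n = 3 each). The nuclear-encoded share was 0.753% ± 0.0104 in QRICH1 KO Tm and 0.746% ± 0.0137 in QRICH1 KO DMSO, against 0.731% ± 0.0237 in WT Tm and 0.760% ± 0.0389 in WT DMSO (SD, n = 3 each). The nuclear-encoded share ran between 0.716% and 0.805% over the 12 libraries. In bulk libraries, fewer cells and less RNA per cell cannot be told apart, and every value is relative to the other genes counted.

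**Figure D1:**
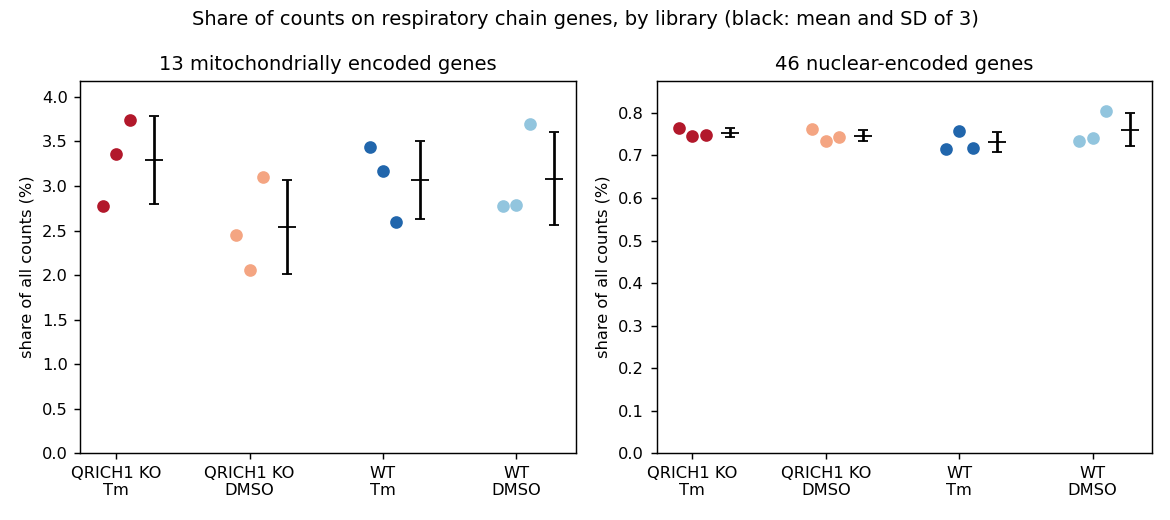
Share of all counts (%) on the 13 mitochondrially encoded genes (left) and the 46 nuclear-encoded subunits (right), by library in the 4 groups, with the mean and SD of 3 in black. The mitochondrial share lies between 2.06% and 3.74%, with Tm and DMSO libraries overlapping in both genotypes, and the nuclear share between 0.716% and 0.805%.

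The mitochondrially encoded genes went up and down together from library to library within a group. In library 1 of QRICH1 KO Tm only 1 of the 13 was above its group mean, against 10 in library 2 and 11 in library 3. In library 2 of QRICH1 KO DMSO none of the 13 was above the group mean, in library 3 of WT Tm none, and in library 3 of WT DMSO 12 were. Their mean deviation from the group mean ranged from -0.25 in library 2 of QRICH1 KO DMSO to 0.18 in library 3 of QRICH1 KO DMSO (log2 scale). The 13 genes are therefore not 13 independent readings of a condition.

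In QRICH1 KO cells, Tm was followed by higher levels of mitochondrially encoded messengers: 8 of 13 rose, none fell, and all 13 log2 fold changes were positive, with a median of 0.51. Of all genes tested, 9.09% rose and 6.53% fell in this comparison, with a median log2 fold change of -0.00387. In WT cells 1 of 13 rose, MT-ND3, none fell, and the median was 0.04, where 12.6% of all genes rose and 11.1% fell, with a median of -0.0239. All 13 fold changes stayed positive in QRICH1 KO in each of 13 alternative fits, whereas the number positive in WT was 8 and ran between 5 and 12. The count of 8 depended on single libraries: it was 3 without library 2 of QRICH1 KO Tm, 4 without library 3 of that group, 5 without library 1 of QRICH1 KO DMSO and 3 without library 2 of that group. It was 6 without both QRICH1 KO libraries numbered 3. Genes were called at an adjusted p under 0.05 in edgeR's quasi-likelihood test, with the Benjamini-Hochberg method run across every tested gene. Log2 fold changes are given ± SE, and the p-values measure the spread between the libraries of a group. How often groups were without overlap over all genes was not counted, so groups said to be apart are a description only.

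Complex I holds 7 mitochondrially encoded subunits, all in its proton-pumping membrane arm, and MT-ND2, MT-ND3 and MT-ND4L rose with Tm in QRICH1 KO. MT-ND3, whose loop sits at the junction of the membrane and peripheral arms, had 682, 639.8 and 657 CPM in QRICH1 KO Tm and 373, 288 and 418 CPM in QRICH1 KO DMSO. MT-ND3 stood at 627, 519.7 and 489 CPM in WT Tm and 321, 382 and 466 CPM in WT DMSO. It stood out among the 13 because all 3 Tm libraries were above all 3 DMSO libraries in both genotypes. Its log2 fold change was 0.88 ± 0.15 (adjusted p = 0.00043) in QRICH1 KO, and 0.49 ± 0.15 (adjusted p = 0.0223) in WT, where the call was lost without library 1 of WT Tm, library 1 of WT DMSO or library 2 of WT DMSO (highest adjusted p = 0.109). MT-ND2, one of the antiporter-like subunits, had 2563, 3296 and 2801 CPM in QRICH1 KO Tm and 2193, 1609 and 2343 CPM in QRICH1 KO DMSO. MT-ND2 stood at 2884, 2762 and 2190 CPM in WT Tm and 2467, 2038 and 2858 CPM in WT DMSO. The QRICH1 KO Tm and DMSO libraries did not overlap and the WT libraries did, with log2 fold changes of 0.50 ± 0.16 (adjusted p = 0.0423) in QRICH1 KO and 0.09 ± 0.16 (adjusted p = 0.743) in WT. MT-ND4L, the smallest membrane-arm subunit of this genome, had 627, 720 and 906 CPM in QRICH1 KO Tm and 575, 446 and 565 CPM in QRICH1 KO DMSO. MT-ND4L stood at 597, 556 and 429.8 CPM in WT Tm and 475, 575 and 700.3 CPM in WT DMSO. Only the QRICH1 KO groups were apart, at a log2 fold change of 0.51 ± 0.16 (adjusted p = 0.0433) and WT had -0.14 ± 0.16 (adjusted p = 0.583). Both QRICH1 KO calls were lost without library 2 or 3 of QRICH1 KO Tm or library 1 or 2 of QRICH1 KO DMSO, at an adjusted p of up to 0.217 for MT-ND2 and 0.212 for MT-ND4L, and that of MT-ND4L also without both libraries numbered 3.

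The other 4 mitochondrially encoded complex I genes did not pass the test in either genotype. MT-ND1, which helps form the ubiquinone-binding site, had 2439, 2984 and 3184 CPM in QRICH1 KO Tm and 2215, 1813 and 2902 CPM in QRICH1 KO DMSO. MT-ND1 stood at 3072, 3213 and 2038 CPM in WT Tm and 2452, 2609 and 3370 CPM in WT DMSO. MT-ND4, another antiporter-like subunit, had 2337, 3068 and 3234 CPM in QRICH1 KO Tm and 2009, 1699 and 2618 CPM in QRICH1 KO DMSO. MT-ND4 stood at 2843, 2932 and 2210 CPM in WT Tm and 2782, 2211 and 2931 CPM in WT DMSO. MT-ND5, at the far end of the membrane arm, had 692, 834 and 966 CPM in QRICH1 KO Tm and 768, 628 and 806 CPM in QRICH1 KO DMSO. MT-ND5 stood at 926, 869.9 and 728 CPM in WT Tm and 842, 788 and 977 CPM in WT DMSO. Tm and DMSO libraries overlapped for these 3 genes in both genotypes, with log2 fold changes of 0.31, 0.45 and 0.18 in QRICH1 KO and -0.02, 0.01 and -0.05 in WT. MT-ND6, the only one of the 13 encoded on the opposite strand, had 52.9, 81.1 and 85.4 CPM in QRICH1 KO Tm and 45, 34.7 and 53.5 CPM in QRICH1 KO DMSO. MT-ND6 stood at 67.3, 61.7 and 40.7 CPM in WT Tm and 36.9, 57.2 and 81.2 CPM in WT DMSO. Its QRICH1 KO groups overlapped by 1 library, at a log2 fold change of 0.72 ± 0.24 (adjusted p = 0.0552), against -0.05 ± 0.25 (adjusted p = 0.92) in WT. The chemistry does not mark strand, so reads of MT-ND6 cannot be told from reads of the opposite strand there.

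MT-CYB encodes cytochrome b, the electron-carrying core of complex III and its only mitochondrially encoded subunit. It had 2837, 3696 and 3969 CPM in QRICH1 KO Tm and 2686, 2213 and 3462 CPM in QRICH1 KO DMSO. MT-CYB stood at 4256, 4432 and 3055 CPM in WT Tm and 3546, 2815 and 3749 CPM in WT DMSO. Groups overlapped in both genotypes, and the log2 fold changes were 0.33 ± 0.18 (adjusted p = 0.239) in QRICH1 KO and 0.22 ± 0.18 (adjusted p = 0.426) in WT.

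All 3 mitochondrially encoded core subunits of complex IV, the cytochrome c oxidase, rose with Tm in QRICH1 KO. MT-CO1, which holds the haem-copper centre where oxygen is reduced, had 5386, 6710 and 6754 CPM in QRICH1 KO Tm and 4607, 3850 and 4125 CPM in QRICH1 KO DMSO. MT-CO1 stood at 5724, 5800 and 5179 CPM in WT Tm and 4548, 4401 and 5677 CPM in WT DMSO. Every QRICH1 KO Tm library exceeded every QRICH1 KO DMSO library, at a log2 fold change of 0.58 ± 0.13 (adjusted p = 0.00499), a call held in all 13 alternative fits, while the WT groups overlapped (0.19 ± 0.13, adjusted p = 0.325). MT-CO2, which receives electrons from cytochrome c, had 7525, 9156 and 9503 CPM in QRICH1 KO Tm and 5709, 4654 and 7337 CPM in QRICH1 KO DMSO. MT-CO2 stood at 10180, 11160 and 7128 CPM in WT Tm and 7401, 6516 and 8575 CPM in WT DMSO. The lowest QRICH1 KO Tm library was just above the highest QRICH1 KO DMSO library, with log2 fold changes of 0.56 ± 0.18 (adjusted p = 0.0399) in QRICH1 KO and 0.34 ± 0.18 (adjusted p = 0.188) in WT. MT-CO3, the remaining core subunit, had 2514, 2745 and 2990 CPM in QRICH1 KO Tm and 2365, 2002 and 1910 CPM in QRICH1 KO DMSO. MT-CO3 stood at 2696, 2976 and 2506 CPM in WT Tm and 2264, 2205 and 2508 CPM in WT DMSO. Its QRICH1 KO groups were again apart and its WT groups overlapped by a narrow margin, at 0.39 ± 0.12 (adjusted p = 0.0299) in QRICH1 KO, and 0.23 ± 0.12 (adjusted p = 0.178) in WT. The call of MT-CO2 was lost without library 2 or 3 of QRICH1 KO Tm or library 1 or 2 of QRICH1 KO DMSO (adjusted p up to 0.199). That of MT-CO3 was lost without library 2 or 3 of QRICH1 KO Tm, library 2 or 3 of QRICH1 KO DMSO, or both libraries numbered 3 (adjusted p up to 0.255).

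Both mitochondrially encoded subunits of complex V rose with Tm in QRICH1 KO. MT-ATP6, which forms the proton path beside the rotating ring, had 1342, 1699 and 1596 CPM in QRICH1 KO Tm and 1171, 905 and 1106 CPM in QRICH1 KO DMSO. MT-ATP6 stood at 1329, 1377 and 1036 CPM in WT Tm and 1249, 1099 and 1301 CPM in WT DMSO. MT-ATP8, a short membrane subunit, had 27.4, 25.4 and 41.3 CPM in QRICH1 KO Tm and 16.7, 12.7 and 14.9 CPM in QRICH1 KO DMSO. MT-ATP8 stood at 16.1, 21.2 and 17.6 CPM in WT Tm and 27.6, 17.7 and 12.7 CPM in WT DMSO. For both genes all QRICH1 KO Tm libraries were above all QRICH1 KO DMSO libraries and the WT groups overlapped. Log2 fold changes were 0.54 ± 0.14 (adjusted p = 0.0101) for MT-ATP6 and 1.09 ± 0.23 (adjusted p = 0.0037) for MT-ATP8 in QRICH1 KO, and 0.04 ± 0.14 (adjusted p = 0.883) and -0.05 ± 0.24 (adjusted p = 0.912) in WT. Although read from 1 messenger, the genes gave unequal counts: MT-ATP8 had 0.0204, 0.015 and 0.0259 counts per MT-ATP6 count in QRICH1 KO Tm and 0.0142, 0.014 and 0.0135 in QRICH1 KO DMSO, against 0.0121, 0.0154 and 0.017 in WT Tm and 0.0221, 0.0161 and 0.00972 in WT DMSO. The call of MT-ATP6 was lost without library 2 of QRICH1 KO Tm or library 2 of QRICH1 KO DMSO (adjusted p up to 0.0763), and that of MT-ATP8 held in all 13 alternative fits. The MT-ATP8 to MT-ATP6 ratio was above every QRICH1 KO DMSO value in all 3 QRICH1 KO Tm libraries. How the counting treated the 46 shared bases was not tested. MT-ND4L had 0.261 ± 0.0236 counts per MT-ND4 count in QRICH1 KO Tm and 0.255 ± 0.036 in QRICH1 KO DMSO, against 0.198 ± 0.0107 in WT Tm and 0.223 ± 0.0468 in WT DMSO (SD, n = 3 each).

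**Figure D2:**
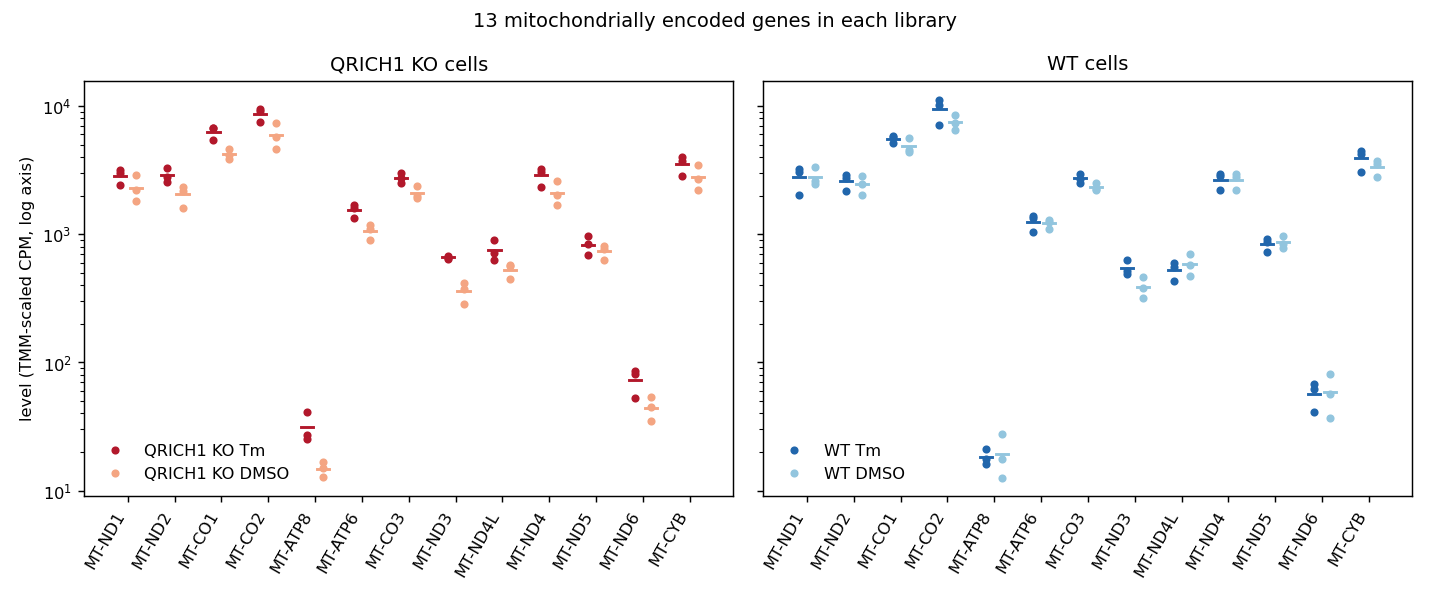
Level of each of the 13 mitochondrially encoded genes (TMM-scaled CPM, log axis) in the 3 libraries of each group, with the group mean as a bar, in QRICH1 KO (left) and WT cells (right). In QRICH1 KO the Tm means are above the DMSO means for all 13 genes, and 8 passed the test, while in WT only MT-ND3 passed it.

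Each nuclear subunit is read from its own promoter, and 37 of 46 nuclear-encoded genes matched the RefSeq promoter table (GRCh38.p14, 250 bases before to 50 after a start, 45 windows). The motifs searched, on both strands, were GCGCANGCG, bound by NRF1, and CCGGAAGT, bound by ETS factors such as GABP, both long known at promoters of respiratory chain genes. The NRF1 motif was in 26.7% of the members' windows, against 7.52% of all 35116 windows, the ETS motif in 15.6% against 4.14%, and either in 40% against 11%. Counted by gene, 12 of the 37 had the NRF1 motif, 7 the ETS motif and 18 either. The full set holds windows of 27305 genes, expressed here or not, and was not matched for base composition. Whether the higher shares are particular to the respiratory chain was not tested. In QRICH1 KO, 1 of 3 matched genes that rose with Tm and 17 of 34 not called had either motif, and in WT 3 of 5 that rose, the 1 that fell and 14 of 31 not called did. A match is a string of letters, not a shown binding site. The promoters of NDUFA1, UQCRH and SDHA are printed, with motif matches in capitals, because NDUFA1 and UQCRH rose in both genotypes and SDHA was the 1 nuclear-encoded gene that fell. That of NDUFA1 (chrX:119871582-119871881, plus strand) has none, that of UQCRH (chr1:46303448-46303747, plus strand) has 1 ETS match, read on the opposite strand, and that of SDHA (chr5:218070-218369, plus strand) has 4 NRF1 matches.
NDUFA1: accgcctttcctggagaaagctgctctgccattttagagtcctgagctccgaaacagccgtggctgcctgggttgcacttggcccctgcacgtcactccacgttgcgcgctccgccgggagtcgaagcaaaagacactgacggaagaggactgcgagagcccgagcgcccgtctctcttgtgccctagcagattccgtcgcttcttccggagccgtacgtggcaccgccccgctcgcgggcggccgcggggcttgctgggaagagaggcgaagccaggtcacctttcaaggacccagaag
UQCRH: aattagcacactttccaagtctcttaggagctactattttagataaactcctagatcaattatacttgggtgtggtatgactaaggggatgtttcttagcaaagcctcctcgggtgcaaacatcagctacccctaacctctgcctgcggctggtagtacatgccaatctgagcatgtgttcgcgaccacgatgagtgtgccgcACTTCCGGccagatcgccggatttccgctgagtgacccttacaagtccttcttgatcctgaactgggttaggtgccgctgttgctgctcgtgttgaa
SDHA: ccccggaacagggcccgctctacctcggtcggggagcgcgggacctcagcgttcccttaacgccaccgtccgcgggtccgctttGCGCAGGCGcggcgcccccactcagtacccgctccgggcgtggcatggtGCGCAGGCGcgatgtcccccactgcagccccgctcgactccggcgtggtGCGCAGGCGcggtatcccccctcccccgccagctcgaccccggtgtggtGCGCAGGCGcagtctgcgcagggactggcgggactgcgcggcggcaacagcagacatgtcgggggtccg

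Among the 46 nuclear-encoded subunits, 5 rose with Tm in QRICH1 KO (NDUFA1, NDUFB9, UQCRH, COX6C and COX7B), none fell, and the median log2 fold change was 0.18. In WT 9 rose (NDUFA1, NDUFB4, NDUFB9, NDUFC1, UQCRB, UQCRQ, UQCRH, COX6C and NDUFA4), 1 fell (SDHA), and the median was 0.12, where 12.6% of all genes rose and 11.1% fell. The share that rose in QRICH1 KO was close to the 9.09% of all genes that did, which is no result about these genes. The QRICH1 KO count was 3 without library 3 of QRICH1 KO Tm, 3 without library 2 of QRICH1 KO DMSO and 2 without both QRICH1 KO libraries numbered 3, and 9 with DESeq2 or with the QRICH1 KO libraries fitted alone. The WT count was 4 without library 2 of WT Tm, 4 without library 1 of WT DMSO and 5 without library 2 of WT DMSO. Calls of NDUFA1 and NDUFB9 held in all 13 alternative fits in both genotypes, and those of NDUFC1, COX6C and SDHA in all 13 in WT.

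Of 25 nuclear-encoded subunits of complex I, 2 rose in QRICH1 KO and 4 in WT, where 9.09% and 12.6% of all genes rose. NDUFA1, a small subunit needed to build the membrane arm, had 77.9, 88.7 and 108 CPM in QRICH1 KO Tm and 41.3, 38.6 and 45.3 CPM in QRICH1 KO DMSO. NDUFA1 stood at 114, 115 and 87.1 CPM in WT Tm and 41.8, 47 and 70.2 CPM in WT DMSO. It had the largest rise of the 59 genes in both genotypes, with every Tm library above every DMSO library and log2 fold changes of 1.14 ± 0.17 (adjusted p = 0.000156) in QRICH1 KO and 0.99 ± 0.17 (adjusted p = 0.000356) in WT. Of its principal transcript, 44.5% overlaps exons of RNF113A, and reads of the overlapping genes cannot be told apart without strand. NDUFB9 and NDUFC1, accessory subunits of the membrane arm, had log2 fold changes in QRICH1 KO of 0.51 ± 0.12 (adjusted p = 0.00562) and 0.27 ± 0.13 (adjusted p = 0.189), so that only NDUFB9 passed the test there. In WT both passed it, at 0.52 ± 0.12 (adjusted p = 0.00281) and 0.70 ± 0.14 (adjusted p = 0.000867). NDUFB9 shares 26% of its principal transcript with TATDN1. NDUFB4, another accessory subunit, had 0.34 ± 0.12 (adjusted p = 0.0629) in QRICH1 KO and 0.37 ± 0.12 (adjusted p = 0.0363) in WT, where the call was lost without library 2 or 3 of WT Tm, library 1 or 2 of WT DMSO, or with the WT libraries fitted alone (adjusted p up to 0.156). The subunits that carry the electron path of the peripheral arm did not pass the test in either genotype: log2 fold changes were -0.14 for NDUFV1, which binds NADH, 0.20 for NDUFS1, -0.01 for NDUFS7 and -0.04 for NDUFS8 in QRICH1 KO, and -0.01, -0.01, 0.11 and 0.17 in WT. NDUFA13, also known as GRIM-19, had 0.238, 1.29 and 0.875 CPM in QRICH1 KO Tm and 0.452, 0.0693 and 0.563 CPM in QRICH1 KO DMSO. NDUFA13 stood at 0.0825, 0.894 and 0.456 CPM in WT Tm and 0.68, 0.913 and 0.223 CPM in WT DMSO. These values rest on 1 to 15 counts a library, with 81 in all, and all groups overlapped, and a difference between QRICH1 KO and WT under Tm was not detectable at this depth (log2 fold change 0.67, 95% interval -0.96 to 2.29).

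Complex II links the chain to the citric acid cycle and has no mitochondrially encoded part. SDHA, the flavoprotein that oxidises succinate, had 19.5, 13 and 14.3 CPM in QRICH1 KO Tm and 21.6, 22.2 and 15.1 CPM in QRICH1 KO DMSO. SDHA stood at 12.2, 11.1 and 8.67 CPM in WT Tm and 20.3, 25.2 and 16.6 CPM in WT DMSO. WT Tm values were all below WT DMSO values, and the fall of 0.95 on the log2 scale passed the test (log2 fold change -0.95 ± 0.21, adjusted p = 0.00303), whereas the QRICH1 KO groups overlapped (-0.32 ± 0.20, adjusted p = 0.322). It was the only nuclear member called lower in either genotype, and GENCODE 29 annotates 3 pseudogene copies that could share its reads. The difference between the responses of the genotypes did not pass the test (interaction 0.62 ± 0.29, adjusted p = 0.727). SDHD, a membrane anchor with a haem, had 59.7, 60.5 and 53.5 CPM in QRICH1 KO Tm and 44.6, 37.8 and 52.5 CPM in QRICH1 KO DMSO. SDHD stood at 60.1, 46.6 and 68 CPM in WT Tm and 44.1, 61.7 and 65.7 CPM in WT DMSO. The QRICH1 KO groups were apart and the WT groups overlapped, with log2 fold changes of 0.36 ± 0.16 (adjusted p = 0.148) in QRICH1 KO and 0.01 ± 0.16 (adjusted p = 0.964) in WT. SDHB, the iron-sulfur subunit, and SDHC, the other anchor, did not pass the test (0.16 and 0.04 in QRICH1 KO, 0.27 and -0.25 in WT).

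In complex III, 1 of 6 nuclear-encoded subunits rose in QRICH1 KO and 3 of 6 in WT, all 3 of them small accessory subunits. Of all genes tested, 9.09% rose in QRICH1 KO and 12.6% in WT. UQCRH, the hinge protein beside cytochrome c1, had 378, 399.8 and 414 CPM in QRICH1 KO Tm and 299, 266 and 278 CPM in QRICH1 KO DMSO. UQCRH stood at 376, 455 and 345 CPM in WT Tm and 249, 264 and 369 CPM in WT DMSO. Groups were apart in QRICH1 KO and overlapped in WT through library 3 of WT DMSO, and both changes passed the test, at 0.50 ± 0.14 (adjusted p = 0.0188) in QRICH1 KO, and 0.42 ± 0.14 (adjusted p = 0.0356) in WT. The QRICH1 KO call was lost without library 2 or 3 of QRICH1 KO Tm, library 2 of QRICH1 KO DMSO or both libraries numbered 3 (adjusted p up to 0.106). The WT call was lost without library 1 or 2 of WT Tm, library 1 or 2 of WT DMSO, or with the WT libraries fitted alone (adjusted p up to 0.18). UQCRQ, a small ubiquinone-binding-region subunit, had 91.5, 69.3 and 83.1 CPM in QRICH1 KO Tm and 68.4, 59.2 and 50 CPM in QRICH1 KO DMSO. UQCRQ stood at 73.5, 90.5 and 65.4 CPM in WT Tm and 41.6, 55.9 and 58.4 CPM in WT DMSO. It was higher in every Tm library than in any DMSO library of its genotype, with log2 fold changes of 0.46 ± 0.16 (adjusted p = 0.0558) in QRICH1 KO and 0.55 ± 0.16 (adjusted p = 0.0162) in WT. Of its principal transcript, 40.8% overlaps exons of GDF9. UQCRB, also a small subunit, had 0.35 ± 0.12 (adjusted p = 0.0673) in QRICH1 KO and 0.40 ± 0.12 (adjusted p = 0.0256) in WT. The WT call of UQCRQ was lost without library 2 of WT Tm or library 1 of WT DMSO (adjusted p up to 0.101), and that of UQCRB without library 2 or 3 of WT Tm or library 1 or 2 of WT DMSO (up to 0.128). UQCRC2, one of the large core proteins on the matrix side, had 169.5, 146 and 143 CPM in QRICH1 KO Tm and 177, 173 and 175 CPM in QRICH1 KO DMSO. UQCRC2 stood at 171, 206 and 181 CPM in WT Tm and 224, 195 and 168 CPM in WT DMSO. Every QRICH1 KO Tm library was below every QRICH1 KO DMSO library and every WT Tm library, but neither difference passed the test, at -0.20 ± 0.12 (adjusted p = 0.296) for Tm in QRICH1 KO, and -0.28 ± 0.12 (adjusted p = 0.304) for QRICH1 KO against WT under Tm. UQCRFS1, the Rieske iron-sulfur protein, and UQCRC1 had log2 fold changes of -0.33 and 0.04 in QRICH1 KO and -0.17 and 0.10 in WT, none called.

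All 6 nuclear-encoded subunits of complex IV on the list had positive log2 fold changes with Tm in both genotypes. Of these, COX6C and COX7B passed the test in QRICH1 KO and COX6C and NDUFA4 in WT, where 9.09% and 12.6% of all genes rose. COX6C, a single-helix accessory subunit, had 76.6, 65.1 and 76.7 CPM in QRICH1 KO Tm and 57.8, 55.1 and 49.9 CPM in QRICH1 KO DMSO. COX6C stood at 84.8, 95.7 and 88.8 CPM in WT Tm and 60.3, 57.3 and 63.6 CPM in WT DMSO. No Tm library of either genotype was as low as any DMSO library, and the log2 fold changes were 0.43 ± 0.11 (adjusted p = 0.0128) in QRICH1 KO and 0.57 ± 0.11 (adjusted p = 0.000867) in WT. All 3 QRICH1 KO Tm values of COX6C were also below all 3 WT Tm values, a difference that did not pass the test (-0.30 ± 0.11, adjusted p = 0.232). COX7B, another small accessory subunit, had 92.9, 83.2 and 93.6 CPM in QRICH1 KO Tm and 64.7, 60.1 and 63 CPM in QRICH1 KO DMSO. COX7B stood at 83.2, 97.3 and 82.1 CPM in WT Tm and 58.6, 65.8 and 89.2 CPM in WT DMSO. Its QRICH1 KO groups were apart and its WT groups overlapped, at 0.52 ± 0.14 (adjusted p = 0.013) in QRICH1 KO, and 0.30 ± 0.14 (adjusted p = 0.13) in WT. NDUFA4, first assigned to complex I and now counted with complex IV, had a log2 fold change of 0.34 ± 0.12 (adjusted p = 0.0552) in QRICH1 KO and 0.36 ± 0.12 (adjusted p = 0.0323) in WT. Without both QRICH1 KO libraries numbered 3, the QRICH1 KO calls of COX6C (adjusted p = 0.14) and COX7B (adjusted p = 0.0759) were lost, as was that of COX6C without library 3 of QRICH1 KO Tm and that of COX7B without library 2 of QRICH1 KO DMSO. NDUFA4 lost its WT call without library 1 or 2 of WT Tm, library 1 or 2 of WT DMSO, or with the WT libraries fitted alone (adjusted p up to 0.168). The reads of COX6C may include those of 17 annotated pseudogenes.

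None of the 5 nuclear-encoded complex V subunits passed the test in either genotype. ATP5F1A, the alpha subunit of the catalytic head, had 703, 675 and 602 CPM in QRICH1 KO Tm and 946, 867 and 702 CPM in QRICH1 KO DMSO. ATP5F1A stood at 613, 739 and 689.6 CPM in WT Tm and 959.6, 784 and 722 CPM in WT DMSO. Tm and DMSO libraries overlapped in both genotypes, at log2 fold changes of -0.35 ± 0.13 (adjusted p = 0.0859) in QRICH1 KO and -0.27 ± 0.13 (adjusted p = 0.152) in WT. ATP5PO, the stalk protein that gives oligomycin sensitivity, had 16.2, 13.3 and 9.39 CPM in QRICH1 KO Tm and 12.6, 11.6 and 6.88 CPM in QRICH1 KO DMSO. ATP5PO stood at 10.4, 11.9 and 11.6 CPM in WT Tm and 8.85, 9.13 and 8.78 CPM in WT DMSO. Its WT Tm libraries were above its WT DMSO libraries without passing the test (0.34 ± 0.23, adjusted p = 0.33), and 70.3% of its principal transcript overlaps another coding gene. ATP5F1B, the catalytic beta subunit, had log2 fold changes of 0.09 in QRICH1 KO and 0.07 in WT. Summed over each complex, nuclear-encoded transcripts of complex V came to 2916 ± 219 CPM in QRICH1 KO Tm and 2969 ± 254 CPM in QRICH1 KO DMSO, against 2879 ± 259 CPM in WT Tm and 2953 ± 230.2 CPM in WT DMSO. The same sum for complex IV was 1193 ± 35.6 CPM in QRICH1 KO Tm and 988 ± 75 CPM in QRICH1 KO DMSO, against 1262 ± 162 CPM in WT Tm and 1013 ± 68.5 CPM in WT DMSO (SD, n = 3 each).

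**Figure D3:**
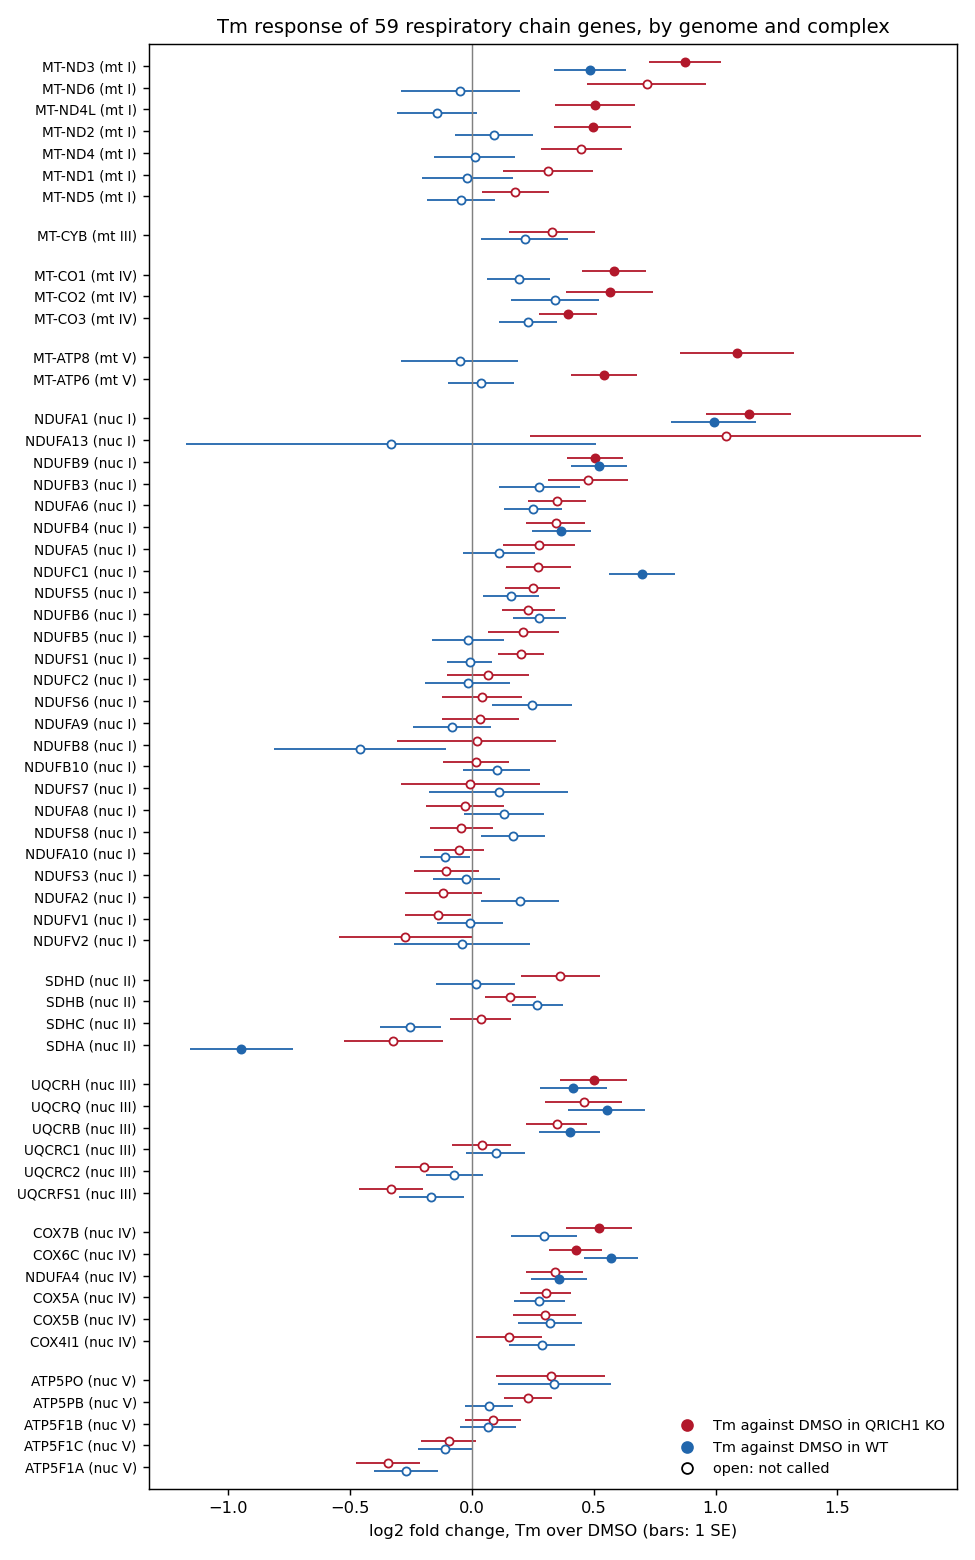
Log2 fold change of Tm over DMSO for all 59 genes, grouped by genome (mt, mitochondrial, or nuc, nuclear) and complex, in QRICH1 KO (red) and WT (blue), with bars of 1 SE and filled points for genes called at an adjusted p under 0.05. All 13 mitochondrially encoded genes sit to the right of 0 in QRICH1 KO and 8 do in WT, with medians of 0.51 and 0.04, against medians of 0.18 in QRICH1 KO and 0.12 in WT for the 46 nuclear-encoded genes.

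None of the 59 genes passed the test between genotypes. For QRICH1 KO against WT under Tm, 1.17% of all genes were called and none of the 59, and under DMSO 0.0971% were called and none of the 59. At an unadjusted p under 0.05 there were 3 mitochondrially encoded and 5 nuclear-encoded genes under Tm, and 0 and 2 under DMSO. Of all 11323 genes tested, 1513 had such a p under Tm and 1027 under DMSO, so these counts are no result about the 59. DESeq2 called no member under Tm and 1 under DMSO, NDUFA5, an accessory subunit of complex I that is named after its value was seen. NDUFA5 had 35, 34.2 and 39.7 CPM in QRICH1 KO DMSO, all below the 43.8, 60.5 and 63.5 CPM in WT DMSO, with a log2 fold change of -0.63 ± 0.15 (adjusted p = 0.128) in edgeR, and GENCODE 29 annotates 12 pseudogenes of it. Under Tm the closest to a call was MT-ATP8, at a log2 fold change of 0.78 ± 0.24 (adjusted p = 0.142), with all 3 QRICH1 KO Tm libraries above all 3 WT Tm libraries. MT-ND4L was likewise apart (0.51 ± 0.16, adjusted p = 0.166), as was MT-ND3 (0.27 ± 0.15, adjusted p = 0.434). In the other direction, NDUFA5 (-0.47 ± 0.15, adjusted p = 0.161) and NDUFC1 (-0.40 ± 0.13, adjusted p = 0.178) were lower in every QRICH1 KO Tm library than in any WT Tm library. NDUFA5 was thus lower without overlap in both treatments, and called by edgeR in neither. With no filter on low counts MT-ATP8 and MT-ND4L were called under Tm. SDHA was higher in every QRICH1 KO Tm library than in any WT Tm library (0.54 ± 0.21, adjusted p = 0.274). Under DMSO all 13 mitochondrially encoded genes had negative log2 fold changes, between -0.40 and -0.12 with a median of -0.26, the groups of each overlapped, and the lowest adjusted p was 0.573. Leaving out library 2 of QRICH1 KO DMSO or library 3 of WT DMSO left 12 and 11 of the 13 negative.

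The Tm responses of the genotypes were then compared directly, by the interaction. Of all genes 0% were called, and 774 had an unadjusted p under 0.05, whereas DESeq2 called 7 genes higher and 28 lower. None of the 59 was called by edgeR or DESeq2, and MT-ATP8 was called by edgeR with no filter on low counts. All 13 mitochondrially encoded genes had positive interaction terms, with a median of 0.39, and 5 had an unadjusted p under 0.05. They were MT-ND4L, MT-ND6, MT-CO1, MT-ATP6 and MT-ATP8. The largest was MT-ATP8, at 1.14 (95% interval 0.48 to 1.80, adjusted p = 0.368), and the smallest MT-CYB, at 0.11 (95% interval -0.38 to 0.60). The 46 nuclear-encoded genes had a median of -0.02, with 21 positive and 25 negative. The larger number of mitochondrially encoded calls in QRICH1 KO than in WT is therefore not shown to be a difference between the genotypes. The median of QRICH1 KO against WT over the 13 was 0.14 under Tm and -0.26 under DMSO. In 16 of 18 alternative fits all 13 terms were positive, and in the other fits, without library 2 of QRICH1 KO DMSO or without library 3 of WT Tm, 12 were.

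The nuclear-encoded genes that rose with Tm were mostly those of small proteins. With up to 500 coding bases in the principal transcript, 4 of 21 members rose in QRICH1 KO and 8 of 21 in WT. With over 500 and up to 1000 coding bases 1 of 16 rose in each genotype, NDUFB9, and with more than 1000 coding bases none of 9 did. Median log2 fold changes by these lengths were 0.34 up to 500 bases, 0.02 above that up to 1000 and -0.10 above that up to 2000 in QRICH1 KO, and 0.28, 0.09 and -0.08 in WT, and only NDUFS1 had more than 2000 coding bases. Over 46 genes, Spearman's rho between log2 fold change and coding length was -0.69 in QRICH1 KO and -0.70 in WT, given as a description over genes that share the same libraries. Over all 11319 genes with a length, rho was -0.09 in QRICH1 KO and -0.15 in WT. Short genes also rose more often among all genes: up to 500 coding bases, 15.8% of 990 rose in QRICH1 KO, with a median of 0.14, and 21.7% rose in WT, with a median of 0.17. Over 2000 coding bases, 6.77% of 3396 genes rose in QRICH1 KO and 8.78% in WT. With the length of the whole principal transcript in place of the coding length, rho over the members was -0.35 in QRICH1 KO and -0.50 in WT. Neither the comparison with coding length nor this alternative was planned, and both were chosen after seeing the data.

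**Figure D4:**
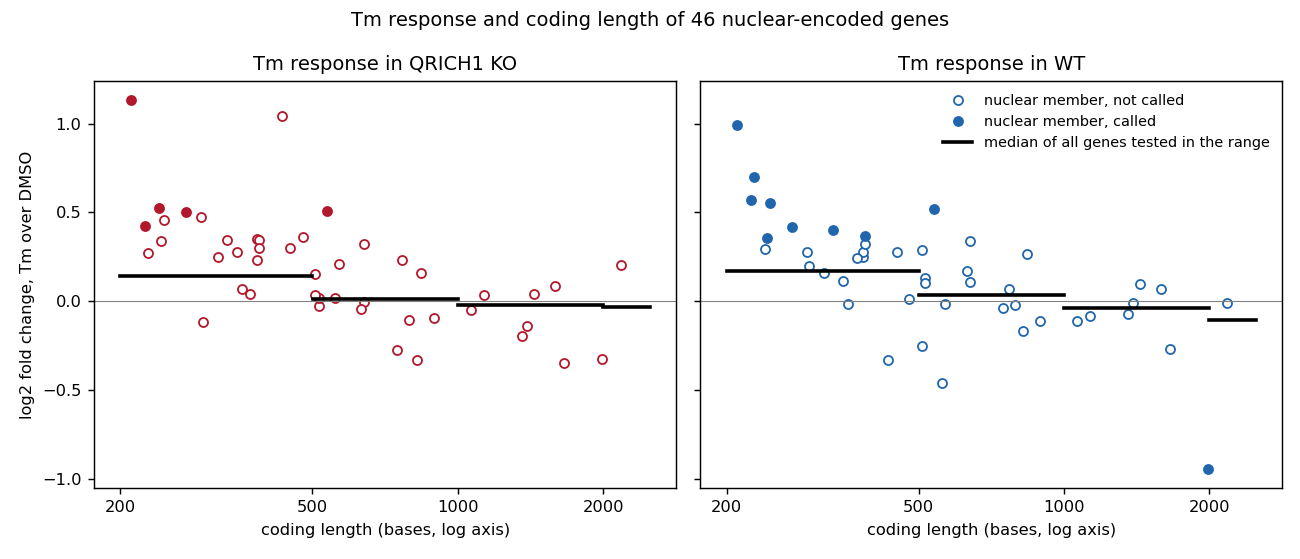
Log2 fold change of Tm over DMSO against coding length in bases (log axis) for the 46 nuclear-encoded genes in QRICH1 KO (left) and WT (right), with called genes filled and the median of all genes tested in each length range as a black line. Of 21 nuclear-encoded members of up to 500 coding bases, 20 lie above 0 in QRICH1 KO and 19 in WT. Of 16 from there up to 1000 bases, 9 lie above 0 in each genotype, and of 8 from 1000 to 2000 bases, 3 do in QRICH1 KO and 2 in WT.

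Per kilobase of principal transcript, mitochondrially encoded genes were the most abundant of the list: 10 of the 13 highest levels were theirs, or 11 with the longest transcript as the length. Their median over the 12 libraries was 2010 CPM per kilobase, against 66.2 CPM per kilobase for the nuclear-encoded genes. MT-CO2 was the highest, with 12760 ± 1544 CPM per kilobase in QRICH1 KO Tm and 8626 ± 1976 in QRICH1 KO DMSO, against 13880 ± 3078 in WT Tm and 10960 ± 1510 in WT DMSO (SD, n = 3 each). MT-CO1 followed at a mean of 3392 CPM per kilobase over all libraries. The lowest of the 13 were MT-ND5 at 452, MT-ND6 at 111 and MT-ATP8 at 101 CPM per kilobase, although MT-ATP6, on the same messenger as MT-ATP8, stood at 1861. Per kilobase of coding sequence UQCRH was the highest nuclear-encoded gene, at 1249. The medians by that length were 2030 for mitochondrially encoded and 145 for nuclear-encoded genes. By principal transcript ATP5F1B was the highest of the nuclear-encoded genes, at 886 CPM per kilobase, ahead of NDUFB9 at 861 and COX4I1, a regulatory subunit of complex IV, at 611. NDUFA13 was the lowest, at 0.566 CPM per kilobase, although its protein is a fixed part of complex I. Exons shared with other coding genes covered 44.1% of its principal transcript, and 71.7% of that of NDUFB8, which averaged 4.19 CPM per kilobase. Reads that such genes share cannot be told apart, and how the counting treated them is not given in the sources used here.

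**Figure D5:**
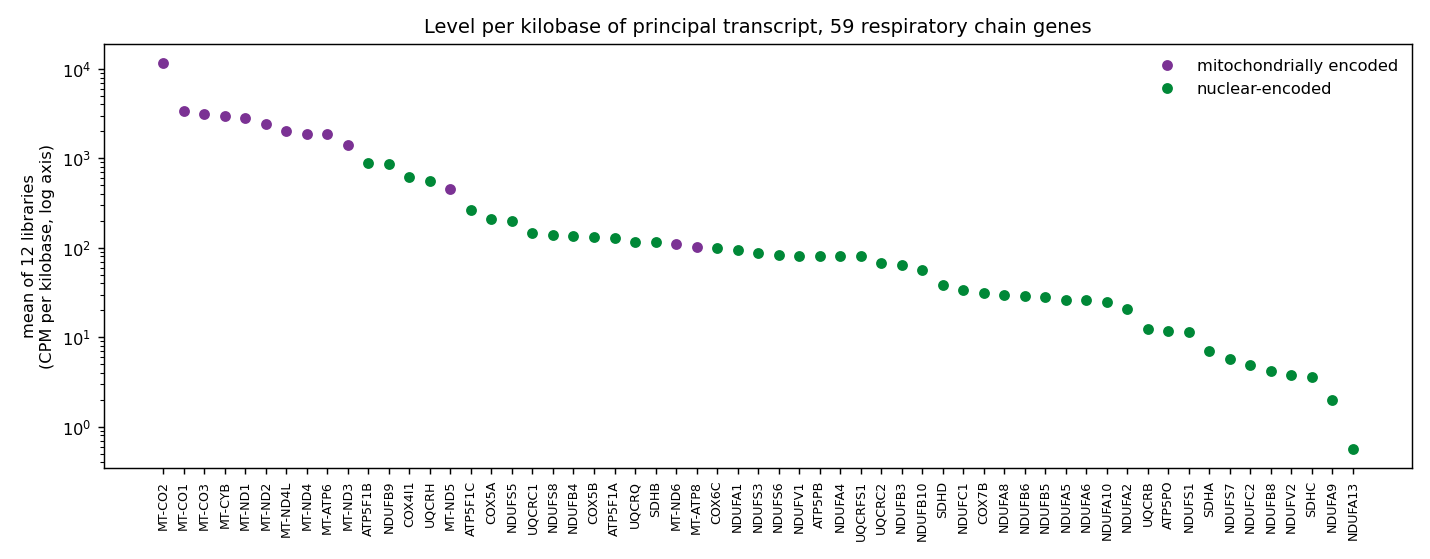
Mean level over the 12 libraries (CPM per kilobase of principal transcript, log axis) of the 59 genes in descending order, mitochondrially encoded in purple and nuclear-encoded in green. The 10 leftmost genes are mitochondrially encoded, from MT-CO2 at 11560 to MT-ND3 at 1412, while MT-ND5, MT-ND6 and MT-ATP8 lie among the nuclear-encoded genes.

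Of 31 structural subunits tested outside the list, 7 rose in QRICH1 KO (median log2 fold change 0.22), where 9.09% of all genes rose, and 7 rose in WT (median 0.14), where 12.6% did. Those of complex IV stood at 3 of 5 in both genotypes, among them COX7A2 (0.57 in QRICH1 KO and 0.71 in WT), COX6A1 (0.75 in QRICH1 KO and 0.63 in WT) and COX7C (0.60 in QRICH1 KO and 0.50 in WT). Further subunits that rose were ATP5MK, ATP5MG, NDUFA12 and NDUFS4 in QRICH1 KO, and ATP5MK, ATP5PF, NDUFS4 and NDUFV3 in WT. ATP5F1D fell in QRICH1 KO (-0.56 ± 0.18, adjusted p = 0.0416). ATP5MF, a membrane subunit of complex V, was the only listed gene of the chain called between genotypes, higher in QRICH1 KO than in WT under Tm (0.93 ± 0.22, adjusted p = 0.0447), with 36.1 ± 11.7 CPM in QRICH1 KO Tm against 18.9 ± 2 CPM in WT Tm (SD, n = 3 each). Whether this call holds without single libraries, or without both QRICH1 KO libraries numbered 3, was not tested.

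CYCS encodes cytochrome c, the mobile carrier between complexes III and IV, and averaged 512 ± 52.7 CPM in QRICH1 KO Tm and 219 ± 19 CPM in QRICH1 KO DMSO, against 566 ± 45.1 CPM in WT Tm and 235 ± 44.5 CPM in WT DMSO (SD, n = 3 each). All Tm libraries were above all DMSO libraries of their genotype, with log2 fold changes of 1.23 ± 0.13 (adjusted p = 2.48e-06) in QRICH1 KO and 1.27 ± 0.13 (adjusted p = 1e-06) in WT. COX7A2L, a supercomplex factor that joins complexes III and IV, rose as well, at 0.55 ± 0.13 (adjusted p = 0.00794) in QRICH1 KO, and 0.77 ± 0.13 (adjusted p = 0.000294) in WT. HIGD1A and HIGD2A of the same list of 4 were not called. Of 7 tissue or stress isoforms of subunits, NDUFA4L2 alone passed the filter, and it is named here because of its value. It is known as a hypoxia-induced relative of NDUFA4, averaged 0.909 ± 0.0773 CPM in QRICH1 KO Tm and 0.17 ± 0.05 CPM in QRICH1 KO DMSO, against 1.32 ± 0.502 CPM in WT Tm and 0.136 ± 0.118 CPM in WT DMSO (SD, n = 3 each), and was called higher with Tm in both genotypes (adjusted p = 0.0143 in QRICH1 KO and 0.00102 in WT). Its mean DMSO levels lie close to the limit set by 3 counts, so no fold is given.

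Assembly factors were counted beside all genes tested, of which 9.09% rose in QRICH1 KO and 12.6% in WT. Of 17 for complex I, 2 rose in QRICH1 KO and 3 in WT: NDUFAF2 (0.59 in QRICH1 KO and 1.22 in WT) and FOXRED1 (0.51 in QRICH1 KO and 0.47 in WT) in both, and NDUFAF4 in WT (0.51). Of 19 tested for complex IV, none rose in QRICH1 KO (2 at an unadjusted p under 0.05) and 3 rose in WT (COX14, COA4 and COA6). None of 13 for complexes II, III and V was called in either genotype, with 0 at an unadjusted p under 0.05 in QRICH1 KO and 1 in WT. Of all 11323 genes tested, 3241 had such a p in QRICH1 KO and 3956 in WT.

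Genes that read, copy and process mitochondrial DNA and RNA were set against the same shares of all genes, with 6.53% lower in QRICH1 KO and 11.1% lower in WT. Of 12 genes for transcription and replication, 1 rose and 1 fell in QRICH1 KO, and 1 rose and 2 fell in WT. SSBP1, the mitochondrial single-strand binding protein, rose (0.52 in QRICH1 KO and 0.44 in WT), and POLG, the mitochondrial DNA polymerase, fell (-0.39 in QRICH1 KO and -0.40 in WT). POLRMT, the RNA polymerase that transcribes mitochondrial DNA, averaged 31.9 ± 4.58 CPM in QRICH1 KO Tm and 44.2 ± 18 CPM in QRICH1 KO DMSO, against 11.6 ± 5.89 CPM in WT Tm and 24.5 ± 9.74 CPM in WT DMSO (SD, n = 3 each). It fell in WT (-1.14 ± 0.36, adjusted p = 0.0288), although the libraries overlapped, and was not called in QRICH1 KO (-0.48 ± 0.33, adjusted p = 0.373). Under Tm every QRICH1 KO library was above every WT library, without passing the test (adjusted p = 0.053). Of 19 genes for RNA processing and stability, 2 rose and 1 fell in QRICH1 KO and 3 rose in WT. SUPV3L1, the helicase of the RNA-degrading complex, rose in both (0.37 in QRICH1 KO and 0.72 in WT), as did the oligoribonuclease REXO2 (0.47 in QRICH1 KO and 0.65 in WT). ELAC2, which cuts the 3′ ends of mitochondrial tRNAs, fell in QRICH1 KO (-0.34). Of 8 tested nuclear regulators of mitochondrial biogenesis, none was called in QRICH1 KO and 2 fell in WT. In QRICH1 KO 2 of the 8 had an unadjusted p under 0.05, as did 3241 of all 11323 genes tested. The 2 that fell in WT were NRF1 (-0.56 ± 0.14, adjusted p = 0.00862) and PPARGC1B (-1.20 ± 0.38, adjusted p = 0.0293), the last at a mean of 2.74 CPM.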

How the data were processed

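RNA was measured by bulk sequencing (modified Smart-seq2 with Nextera XT, NextSeq 500, per the labels' protocols) in 12 libraries in 4 groups. The authors deposited raw counts per gene. Trimmomatic, STAR, DESeq2 and the build hg38 are named per the submitters' processing notes, without roles or versions. No source used here gives the counting tool, strand setting or annotation. IDs were annotated with GENCODE 29 (19972 of 20015 found). Counts were filtered (edgeR filterByExpr, minimum count 10), TMM-scaled and fitted over all 12 libraries with a mean per group by edgeR 4.0.16's quasi-likelihood test in R 4.3.3, and called at a Benjamini-Hochberg adjusted p under 0.05 over 11323 genes. SE and 95% intervals come from the test's F statistic. Levels between genes are CPM per kilobase of APPRIS principal transcript. Alternatives were DESeq2 1.42.0, other scalings, no filter, compared groups only, a replicate block and leaving out libraries. The fit was tested on simulated data. The members and gene lists were chosen with earlier results of these data known. Named genes were QRICH1, all mitochondrially encoded genes, per complex the nuclear-encoded gene with the largest absolute change in each Tm response and in QRICH1 KO against WT under Tm, and per pathway list up to 3 called genes with the largest change and a mean of at least 10 CPM; other genes named were chosen after their values were seen. Protein sequences were not used here. Some items are not reported here.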

Additional observations from a re-analysis of the deposited data

How the results depend on the processing

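No called result changed direction under any alternative run. Of the alternative values for members called, 260 kept their call and 52 lost it. With no filter on low counts, the mitochondrially encoded genes called higher numbered 2 for Tm in WT (against 1), 2 for QRICH1 KO against WT under Tm (against 0) and 1 in the interaction (against 0), and 1 nuclear-encoded gene was called lower for Tm in QRICH1 KO and 1 for QRICH1 KO against WT under DMSO (against 0 each). DESeq2 called 9 nuclear-encoded genes higher for Tm in QRICH1 KO (against 5) and 1 lower for QRICH1 KO against WT under DMSO. The compared groups alone gave 9 and the fit without both QRICH1 KO libraries numbered 3 gave 2 in place of 5. Leaving out 1 library gave 3 to 10 mitochondrially encoded genes higher for Tm in QRICH1 KO and 0 to 1 in WT, 3 to 7 nuclear-encoded genes higher and 0 to 2 lower in QRICH1 KO, 4 to 12 higher in WT, and 0 to 1 lower for QRICH1 KO against WT under DMSO. The cause of these changes was not tested. The labels give replicate numbers but no shared day or batch. Of 18 same-numbered pairs of libraries from different groups, 6 had deviations from the group means correlated above 0.1. These correlations ran from -0.186 to 0.265, against -0.241 to 0.226 for differently numbered pairs. Whether libraries of the same number shared a batch was not tested. With the replicate block, 9 mitochondrially encoded and 6 nuclear-encoded genes were higher for Tm in QRICH1 KO, and 1 and 9 in WT. Over all genes, QRICH1 KO against WT under Tm had 46 genes higher and 86 lower, 90 and 199 with DESeq2, and 126 and 153 with no filter. Under DMSO it had 2 and 9, 23 and 35 with DESeq2, and 76 and 62 with no filter. Without library 3 of QRICH1 KO DMSO it had 26 and 13, and without both QRICH1 KO libraries numbered 3 it had 40 and 19. Leaving out any 1 library gave 13 to 29 genes higher and 35 to 49 lower under Tm. Genes lower with Tm in QRICH1 KO numbered 739, against 438 without library 2 of QRICH1 KO Tm, 400 without library 3 of it, 439 without library 1 of QRICH1 KO DMSO, 389 without library 2 of it and 469 without both libraries numbered 3.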
